A study of Mus musculus with 2 samples.

Results

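The small nucleolar RNA (snoRNA) host genes of the mouse adrenal gland are 10 genes that carry snoRNAs inside their introns, Gas5, Snhg1, Snhg3, Snhg5, Snhg6, Snhg8, Snhg11, Snhg12, Snhg18 and Snhg20. They were taken by gene name from the annotated genes of both deposited count tables, 10 of 16745 annotated genes with at least 1 read. All 10 had a read in replicate 1 and 8 had one in replicate 2.

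Long-read RNA sequencing, which reads the copy of an RNA molecule along its length and so assigns it to 1 transcript structure, was done on whole adrenal tissue of C57BL/6J mice described as wild type. There was 1 group with 2 libraries, labelled as biological replicates 1 and 2. The labels leave sex as not collected, although one field says male, and leave age as unknown. No treatment, genotype or time was compared, and the tests below compare 2 libraries and not conditions. Since both libraries share 1 donor entry, their spread may in part be technical, and in whole tissue fewer cells of a type and less RNA per cell cannot be told apart.

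Most snoRNAs of vertebrates are not transcribed from genes of their own but are trimmed out of the introns of a longer transcript after splicing. They guide the chemical modification of other RNAs: box C/D snoRNAs direct ribose methylation, box H/ACA snoRNAs direct pseudouridylation, and small Cajal body RNAs (scaRNAs) do the same for spliceosomal RNAs. In many noncoding hosts the spliced exons encode no conserved protein, and the spliced RNAs of several hosts, Gas5 among them, are known targets of nonsense-mediated decay, the pathway that degrades RNAs with an early stop codon.

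Counted here are 31 annotated snoRNAs inside the 10 hosts. Gas5 holds 9 of them, Snhg1 8 and Snhg12 4. Snhg3, Snhg5 and Snhg11 hold 2 each, and Snhg6, Snhg8, Snhg18 and Snhg20 hold 1 each. The annotation has further entries, since the introns of transcript Gas5-224 span 10 and those of Snhg12-206 span 5. The snoRNAs of Gas5 are shown because the reads of this gene, the most abundant host, differed between the libraries in whether these stretches had been spliced out. Gas5 lies on the plus strand of chromosome 1, and each of the 9 snoRNAs counted sits in a separate intron of its 12-exon transcript Gas5-224. Sequences are those of GENCODE M21 transcripts on mm10, 5′ to 3′, and capitals mark the C box letters TGATGA within the first 20 bases and the D box letters CTGA within the last 15 bases where both were found.
Gm26224 (chr1:161035394-161035473, intron 1): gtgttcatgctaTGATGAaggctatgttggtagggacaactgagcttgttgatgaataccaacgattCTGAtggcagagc
Gm22489 (chr1:161035850-161035911, intron 2): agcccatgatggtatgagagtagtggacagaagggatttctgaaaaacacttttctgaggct
Gm22357 (chr1:161036057-161036139, intron 3): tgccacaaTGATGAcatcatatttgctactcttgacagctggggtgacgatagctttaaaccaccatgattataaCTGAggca
Gm23212 (chr1:161036682-161036741, intron 5): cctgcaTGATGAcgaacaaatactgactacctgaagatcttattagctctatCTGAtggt
Snord78 (chr1:161036984-161037049, intron 6): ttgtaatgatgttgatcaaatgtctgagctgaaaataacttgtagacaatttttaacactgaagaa
Mir5117 (chr1:161037356-161037439, intron 8): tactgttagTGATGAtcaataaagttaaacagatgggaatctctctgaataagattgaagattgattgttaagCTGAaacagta
Snord80 (chr1:161037601-161037681, intron 9): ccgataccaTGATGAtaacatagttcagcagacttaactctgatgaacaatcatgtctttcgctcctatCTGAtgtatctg
Snord47 (chr1:161038082-161038158, intron 10): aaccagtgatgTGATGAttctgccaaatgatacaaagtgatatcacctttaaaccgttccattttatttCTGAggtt
Gm25789 (chr1:161038308-161038383, intron 11): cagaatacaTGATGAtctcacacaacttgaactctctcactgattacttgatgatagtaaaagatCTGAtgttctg
Both sets of letters were present in 7 of the 9, while Gm22489 and Snord78 lacked an exact TGATGA. Across all 31 snoRNAs of the hosts, 18 held both, 6 ended in ACA followed by 3 more bases, the tail of a box H/ACA RNA, and 7 held neither pattern in this exact form. Among all 1507 annotated snoRNAs, 20.3% held both C and D letters by the same rule. The entry named Mir5117 is annotated as a snoRNA here and is treated as one.

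Intron 6 of Gas5, which holds Snord78, is shown whole because it was among the introns kept most often. Its capitals mark Snord78, and it is followed directly by exon 7, a short exon that some transcripts skip.
Gas5 intron 6 (chr1:161036853-161037123, plus strand): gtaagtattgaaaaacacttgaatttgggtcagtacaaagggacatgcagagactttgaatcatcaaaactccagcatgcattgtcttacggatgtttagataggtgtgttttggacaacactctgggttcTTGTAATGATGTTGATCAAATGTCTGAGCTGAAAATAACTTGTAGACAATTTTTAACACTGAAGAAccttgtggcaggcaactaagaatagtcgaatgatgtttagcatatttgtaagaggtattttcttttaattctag
Gas5 exon 7 (chr1:161037124-161037164, plus strand): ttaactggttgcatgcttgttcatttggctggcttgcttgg

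The snoRNAs of 3 other hosts are shown for comparison. Snhg5 carries the box C/D pair Snord50b and Snord50a in neighbouring introns, whose sequences were identical at 71 of 72 positions (C50A, Snord50a first, counted from its 5′ end), so they cannot be told apart by sequence outside that base. Snhg8 carries the H/ACA RNA Snora24, and Snhg20 carries the scaRNA Gm26083. Capitals mark the C and D letters in the pair and the ACA near the 3′ end in the other sequences.
Snord50b (chr9:88521797-88521868, minus strand): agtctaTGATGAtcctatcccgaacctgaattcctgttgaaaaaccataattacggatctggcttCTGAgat
Snord50a (chr9:88521529-88521600, minus strand): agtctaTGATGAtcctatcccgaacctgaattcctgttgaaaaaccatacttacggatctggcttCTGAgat
Snora24 (chr3:123507937-123508066, minus strand): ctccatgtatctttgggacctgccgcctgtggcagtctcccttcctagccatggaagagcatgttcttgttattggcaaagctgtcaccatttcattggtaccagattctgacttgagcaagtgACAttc
Gm26083 (chr11:117077243-117077435, plus strand): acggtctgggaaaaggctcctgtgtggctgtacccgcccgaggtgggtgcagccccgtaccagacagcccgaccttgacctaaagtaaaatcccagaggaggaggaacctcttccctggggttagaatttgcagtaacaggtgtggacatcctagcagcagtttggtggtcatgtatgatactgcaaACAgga

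The libraries differed in depth and strongly in the length of the transcripts they held. Replicate 1 had 848782 reads and replicate 2 had 545229, so 1 read equals 1.18 and 1.83 CPM (reads scaled to a total of 1000000), and intervals on such counts cover counting error only. The median model length over all reads of annotated genes was 1594 bases in replicate 1 against 2714 in replicate 2, and models under 1000 bases took 25.7% and 2.61% of these reads. All 6 adrenal cortex markers (55748 and 82112 CPM in sum) and all 5 chromaffin cell markers (10093 and 23122 CPM) were read, and the 5 kidney markers had 0 reads. Of other cell types, the 3 erythroid genes summed to 1318 and 128 CPM (2 of 3 tested were lower in replicate 2), the 3 macrophage genes to 730 and 209 CPM (2 lower and 1 higher) and the 3 endothelial genes to 124 and 558 CPM (2 of 2 tested higher), and each was read in both libraries. Over all genes 27.9% were lower and 36.6% higher. With the length trend described further on removed, 0 erythroid and 0 macrophage genes passed in either direction. The 2 tested endothelial genes then stayed higher, beside 21.3% lower and 20% higher over all genes. The part of these differences in the levels below was not tested.

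Together the 10 hosts gave 499 reads in replicate 1 and 67 in replicate 2, or 588 CPM (95% Poisson interval 537 to 642) and 123 CPM (95.2 to 156). Their mean was 355 ± 329 CPM (SD, n = 2), and replicate 1 was 4.78-fold higher (3.70 to 6.27). The hosts thus made up 0.0588% and 0.0123% of all reads. Gas5 alone supplied 60.3% of host reads in replicate 1 and 49.3% in replicate 2.

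**Figure D1:**
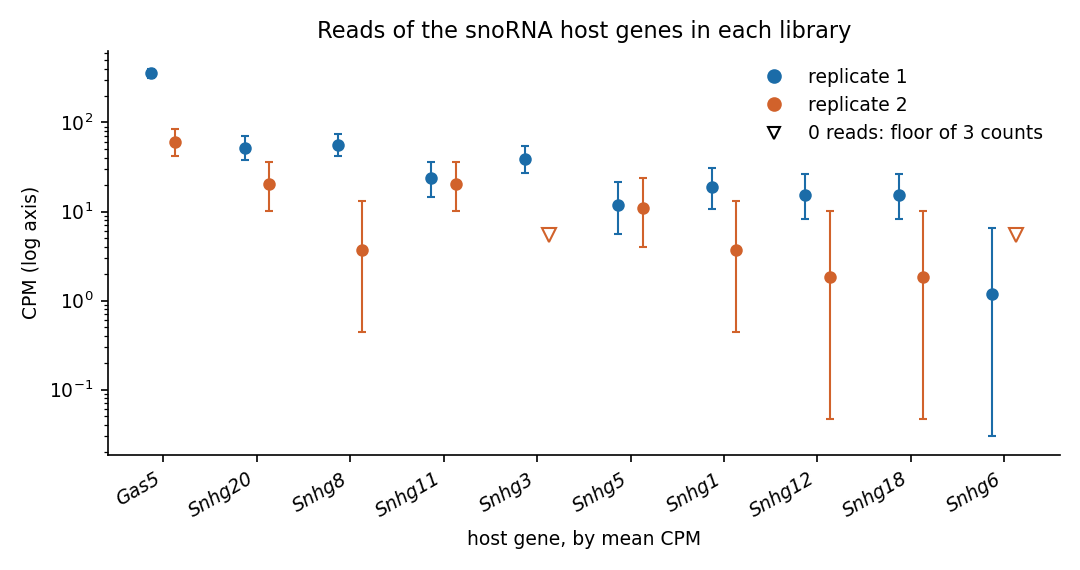
Level of each host gene in CPM (log axis) in replicate 1 (blue) and replicate 2 (orange), ordered by mean, with 95% Poisson intervals. Open triangles stand at the floor of 3 counts for 0 reads; Gas5 is the highest host in both libraries, and Snhg5 and Snhg11 lie at nearly the same level in both.

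Gas5, first found as a transcript that accumulates when growth stops, had 301 reads (355 CPM) in replicate 1 and 33 reads (60.5 CPM) in replicate 2. The library difference was 5.86-fold (4.08 to 8.67; log2 ratio of replicate 2 over replicate 1 after adding 1 CPM, -2.53; Fisher's exact test, Benjamini-Hochberg adjusted over all genes, adjusted p = 4.73e-32). Snhg1, the host of 8 box C/D snoRNAs including Snord22, had 16 and 2 reads (18.9 and 3.67 CPM; log2 ratio -2.09; exact test, adjusted p = 0.0243). The call for Snhg1 was lost with reads of known models only (adjusted p = 0.0767) and with reads of its snoRNA genes added, an alternative chosen after seeing the data (log2 ratio -0.14; exact test, adjusted p = 0.889). With the length trend described further on removed, the log2 ratios turned to 0.76 for Gas5 (adjusted p = 0.0227) and 1.52 for Snhg1 (adjusted p = 0.358, exact binomial test).

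Snhg5, host of the Snord50 pair, had 10 reads (11.8 CPM) in replicate 1 and 6 reads (11.0 CPM) in replicate 2. These values lay within counting error of each other (log2 ratio -0.09; exact test, adjusted p = 1). Snhg18, host of Snord123, had 13 reads and 1 read (15.3 and 1.83 CPM; log2 ratio -2.53; exact test, adjusted p = 0.0216). Of the box C/D hosts, Snhg6 was the least read, with 1 read in replicate 1 and 0 in replicate 2, where a count of 0 allows up to 5.50 CPM (a floor of 3 counts). It was not tested, since the test asked for 10 reads or more in the sum of both libraries.

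Among the H/ACA hosts, Snhg3, which carries Snora73a and Snora73b, had 33 reads (38.9 CPM) in replicate 1 and 0 in replicate 2. It was at least 7.07-fold lower in replicate 2, taking the floor of 3 counts there, without the counting error of replicate 1 (exact test, adjusted p = 5.55e-07). Snhg8 had 48 and 2 reads (56.6 and 3.67 CPM), a 15.4-fold difference (4.04 to 131; log2 ratio -3.62; exact test, adjusted p = 4.99e-08). Both were lower in replicate 2, and with the length trend removed neither passed (adjusted p = 0.283 and 0.874, exact binomial test).

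Snhg12, which carries 3 snoRNAs named as H/ACA and the box C/D Snord99, had 13 reads and 1 read (15.3 and 1.83 CPM; log2 ratio -2.53; exact test, adjusted p = 0.0216). Snhg20, the scaRNA host, had 44 and 11 reads (51.8 and 20.2 CPM), a 2.57-fold difference (1.31 to 5.52; log2 ratio -1.32; exact test, adjusted p = 0.00644). Snhg11, whose annotated gene type is protein coding, had 20 and 11 reads (23.6 and 20.2 CPM; log2 ratio -0.21; exact test, adjusted p = 0.776). Its most used transcript in both libraries, Snhg11-201, is 5864 bases long.

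In all, 9 of the 10 hosts had enough reads to be tested, 7 fell in replicate 2 and 0 rose (0 also at an unadjusted p under 0.05 in Fisher's exact test). Over the 9879 genes tested, 27.9% were lower and 36.6% higher in replicate 2, or 64.4% in either direction. The median log2 ratio was -2.53 over the 9 hosts and 0.38 over all genes tested. Each of the 10 hosts had the higher CPM in replicate 1. The count of 7 was the same with TMM scaling (61.4% of all genes called) and DESeq2 scaling (61.3%), and with reads of known models only it was 6 of 8 (75.6%). It was 4 with reads of the snoRNA genes added, and with the length trend removed 0 were lower and 3 higher (41.3% of all genes called).

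One long read counts as 1 molecule, so levels are not divided by length when genes are compared. By mean CPM the order was Gas5 (208 ± 208, SD, n = 2), Snhg20 (36.01 ± 22.4), Snhg8 (30.1 ± 37.4), Snhg11 (21.9 ± 2.40), Snhg3 (19.4 ± 27.5), Snhg5 (11.4 ± 0.549), Snhg1 (11.3 ± 10.7), Snhg12 and Snhg18 (both 8.58 ± 9.53) and Snhg6 (0.589 ± 0.833). No neighbours in this order were separated beyond their SD. Gas5 was the highest host in both libraries, while the places between Snhg20 and Snhg1 changed from one library to the other.

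The hosts are short when spliced, and short transcripts were scarce in replicate 2. The known models read had a median length of 437 to 606 bases for Snhg3, Snhg8, Snhg6, Gas5, Snhg20, Snhg1 and Snhg12, in that order, 1004 bases for Snhg5, 1486 bases for Snhg18 and 5864 bases for Snhg11. Over all genes the median log2 ratio was -2.72 for those under 500 bases, -3.36 from 500 to 1000 bases and 1.25 from 3000 bases on. After a running median over 301 genes of like length was taken off, 0 hosts were lower in replicate 2 (1, Snhg11, at an unadjusted exact binomial p under 0.05) and 3 were higher: Gas5 (log2 0.76, exact binomial test, adjusted p = 0.0227), Snhg5 (3.03, adjusted p = 0.00177) and Snhg20 (2.29, adjusted p = 0.000342). The background of that comparison was 21.3% lower and 20% higher of 9166 genes, and the median after the correction was 0.76 over the 9 hosts and 0 over all genes. Each gene entered with 1 length, taken from its known models over both libraries (502 bases for Gas5, 1004 for Snhg5, 600 for Snhg20). In replicate 2 the median model length of their reads was 1614, 1232.5 and 2153 bases. The part of this mismatch in the 3 higher calls was not tested.

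**Figure D2:**
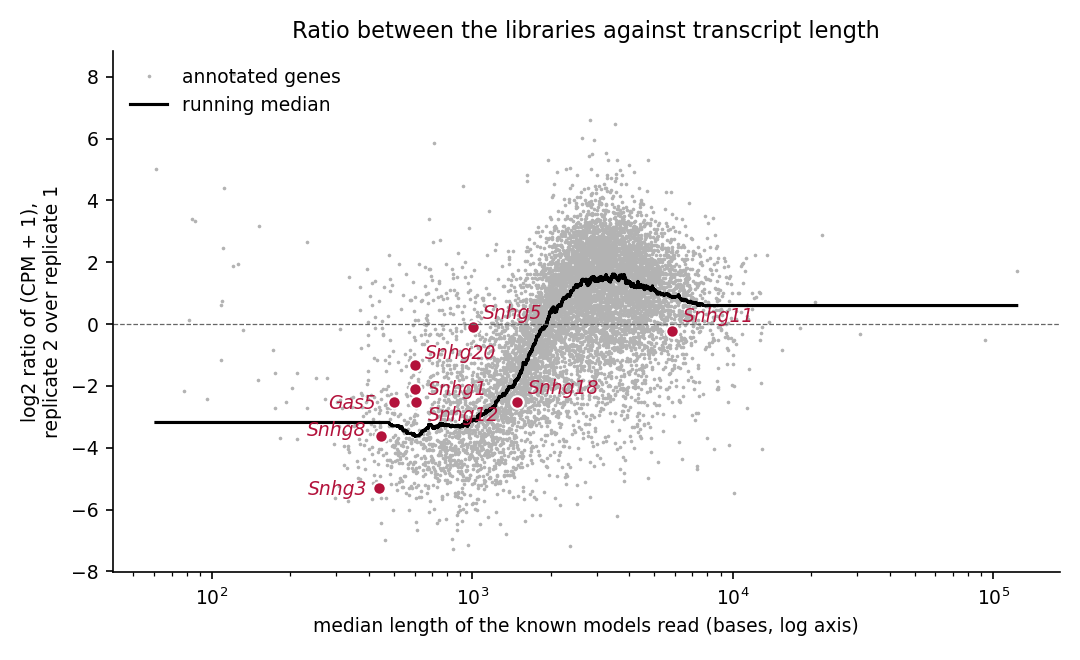
Log2 ratio of CPM plus 1, replicate 2 over replicate 1, against the median length of the known models read (log axis), for all tested genes (grey), their running median (black) and the 9 tested hosts (red). The 7 hosts called lower lie below 0. Gas5, Snhg5 and Snhg20, which passed with the length trend removed, lie above the running median at their length. Snhg1 and Snhg12, which did not pass, also lie above it.

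Set against reads of the same model length, the gap between the libraries was narrower. Among models under 1000 bases, hosts gave 2136 of every 1000000 reads of that class in replicate 1 (Clopper-Pearson 95% interval 1941 to 2345) and 1680 in replicate 2 (1065 to 2519). From 1000 to below 2000 bases the values were 106 (72.9 to 149) and 215 (125 to 343), and from 2000 bases on 91.2 (59.6 to 134) and 62.5 (41.2 to 91.0). In each class the intervals of the 2 libraries overlapped for all hosts together. For Gas5 alone they did not overlap from 1000 to below 2000 bases, at 19.2 (7.06 to 41.9) and 139 (69.3 to 248). These values rest on 6 and 11 reads, all in models that kept an intron, the difference described next. How many of all genes lack overlap in this class was not counted. In the other classes the intervals of Gas5 overlapped as well. Within a library, 440 of the 499 host reads (88.2%) and 23 of the 67 (34.3%) were in models under 1000 bases, and the median model length of host reads was 502 and 1732 bases.

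The libraries also differed in the share of host reads that kept introns. A model that keeps an intron is longer than its spliced form. Models under 1000 bases took 25.7% and 2.61% of the reads of annotated genes. The part of this length difference in the shares below was not tested. A read was counted as intron-retaining when an exon of its model covered a whole intron of an annotated transcript of the gene that is not itself of the retained-intron type. Such reads were 106 of 499 in replicate 1 (21.2%, 17.7 to 25.1) and 42 of 67 in replicate 2 (62.7%, 50.0 to 74.2), beside 10.03% and 12.5% over all genes with introns. In CPM, retaining reads were 125 and 77.0 (1.62-fold higher in replicate 1, 1.12 to 2.38), while the other reads were 463 and 45.9 (10.1-fold, 6.74 to 15.8). The definition counts every Snhg20 read and 9 of 10 Snhg5 reads of replicate 1, because first exons of usual transcripts of these genes cover an intron of another annotated transcript. Counting only introns of the most used annotated transcript of each host, an alternative chosen after seeing the data, gave 13.6% (10.7 to 17.0) and 58.2% (45.5 to 70.2).

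**Figure D3:**
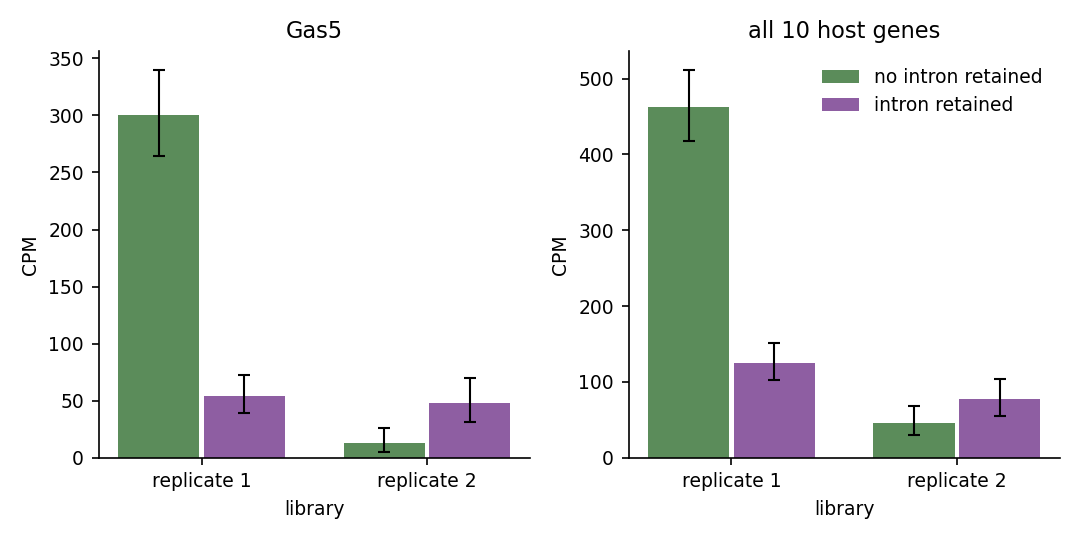
CPM of reads with no retained intron (green) and with at least 1 (purple) in each library, for Gas5 (left) and all 10 hosts (right), with 95% Poisson intervals. In Gas5 the retaining reads stand at 54.2 and 47.7 CPM while the others stand at 300.4 and 12.8 CPM.

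The snoRNAs themselves gave a measure that does not depend on the choice of intron. A snoRNA was kept when an exon covered it whole, and spliced out when it lay whole inside an intron of the model. Of reads that spanned at least 1 snoRNA of a host, 60 of 496 (12.1%, 9.36 to 15.3) kept one in replicate 1 and 39 of 62 (62.9%, 49.7 to 74.8) in replicate 2. For other genes with a snoRNA, 250 and 285 in number, the shares were 1.06% and 2.45%. These pool all reads, so genes with many reads weigh most. Leaving out Gas5, which was chosen after seeing the data, the hosts gave 20 of 195 (10.3%, 6.38 to 15.4) and 13 of 29 (44.8%, 26.4 to 64.3). By the intron definition above, the other noncoding snoRNA hosts listed further on gave 25% and 67.9%. The protein-coding snoRNA hosts listed there gave 1.81% and 4.03%.

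Gas5 showed the difference in the most reads. Its retaining reads were 46 of 301 (15.3%) in replicate 1 and 26 of 33 (78.8%) in replicate 2, a gap of 63.5 percentage points (Fisher's exact test, adjusted p = 5.07e-12). Over the 2290 genes tested for this, 17.9% differed, 15% with the higher share in replicate 2. At the level of CPM the retaining Gas5 reads lay within counting error of each other, 54.2 (39.7 to 72.3) and 47.7 (31.2 to 69.9), a ratio of 1.14 (0.688 to 1.92). The reads with no retained intron fell from 300.4 to 12.8 CPM, a 23.4-fold difference (11.2 to 58.8).

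In replicate 1, 255 of the Gas5 reads (84.7%) retained none of the 11 introns of Gas5-224, 11 retained 1, 30 retained 2 to 4 and 5 retained 5 or more. In replicate 2 these were 7 (21.2%), 4, 4 and 18 (54.5%). Fully spliced molecules were thus the usual form in replicate 1, and molecules with many introns kept were the usual form in replicate 2. By model length, all Gas5 reads in models of 1000 bases or more retained an intron in both libraries (9 in replicate 1 and 21 in replicate 2). The spliced transcripts Gas5-224 and Gas5-210 are 502 and 557 bases long, so retention in the longer models follows from their length. Among models under 1000 bases the share was 37 of 292 (12.7%, 9.08 to 17.0) and 5 of 12 (41.7%, 15.2 to 72.3).

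**Figure D4:**
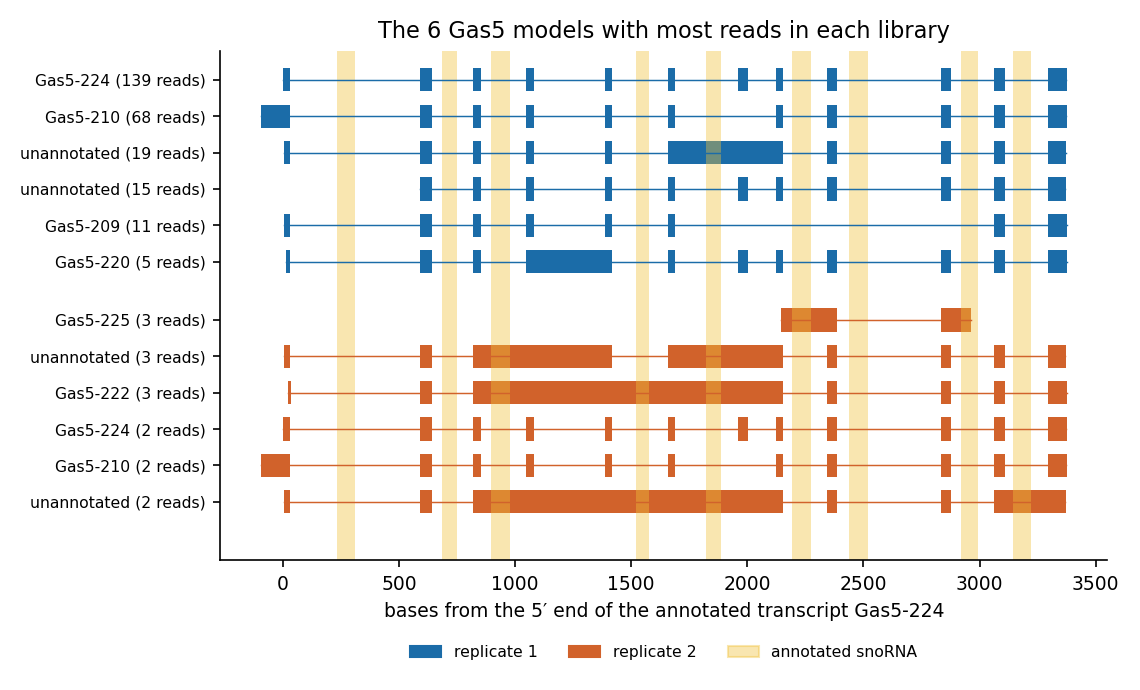
Exons (boxes) and introns (lines) of the 6 Gas5 models with most reads in replicate 1 (blue) and replicate 2 (orange), in bases from the 5′ end of Gas5-224, with annotated snoRNAs as yellow bands. The leading models of replicate 1 (139 and 68 reads) splice out every snoRNA, while the 6 models of replicate 2 (2 to 3 reads each) include spliced ones and ones with exons that cover several.

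Retention was uneven along the gene. In intron 6, printed above, 13.6% of informative reads kept the intron in replicate 1 and 84.6% in replicate 2 (exact test, adjusted p = 2.26e-11), and the neighbouring intron 7, which holds no snoRNA, gave 13.1% and 84.6%. Intron 4, the other intron without a snoRNA, gave 7.19% and 75.0% (exact test, adjusted p = 9.79e-14). Both introns without a snoRNA were thus kept in most reads of replicate 2. At the other end of the range, intron 9 with Snord80 was kept by 0% and 9.09% of reads (exact test, adjusted p = 0.0136). All 11 introns of Gas5-224 had a higher retained share in replicate 2 that passed the test, beside 9.25% of the 5904 introns tested over all genes (10.7% in either direction). These 11 tests share reads, since 18 of the 33 Gas5 reads of replicate 2 retained 5 or more introns. They are thus not separate results, and they restate the difference of the whole gene.

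**Figure D5:**
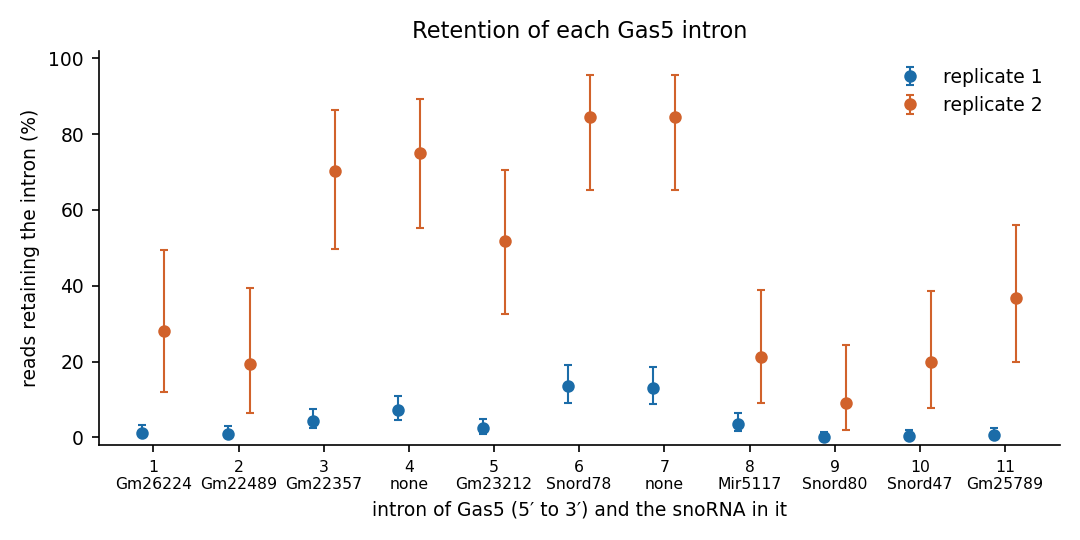
Share of informative reads that retain each intron of Gas5-224, from 5′ to 3′, in replicate 1 (blue) and replicate 2 (orange) with Clopper-Pearson 95% intervals, and the snoRNA each intron holds. Introns 3 to 7 are kept most often in replicate 2, with intron 6 at 84.6%, and intron 9 least, at 9.09%.

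The snoRNA sequences printed first followed the same pattern. Snord78 was kept in 27 of 297 reads (9.09%) and 22 of 29 (75.9%), the highest share of the 9 in both libraries. Gm22357 was kept in 13 of 298 and 20 of 28 reads (4.36% and 71.4%), and Gm23212 in 7 of 297 and 15 of 29 (2.36% and 51.7%). Snord80 was kept in 0 of 295 (0%, an upper limit of 1.24%) and 3 of 33 (9.09%). The other 5 lay between 0.340% and 3.36% in replicate 1 and between 19.2% and 36.7% in replicate 2.

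Within each library, spliced Gas5 reads came with and without exon 7. This exon, the 41-base exon printed above, was included in 171 reads and skipped in 81 in replicate 1 (67.9% included, 61.7 to 73.6), and included in 4 and skipped in 2 in replicate 2 (66.7%, 22.3 to 95.7), where 6 reads leave a wide interval. The most used model, Gas5-224, which contains it, made up 139 of 271 reads of complete models (51.3%) in replicate 1 and 2 of 22 (9.09%) in replicate 2 (exact test, adjusted p = 0.00199, beside 9.93% of 2186 genes called). The model Gas5-210, which lacks exon 7, had 68 and 2 reads. One unannotated combination of known splice sites, in which a single exon runs from exon 6 to exon 8 across Snord78, had 19 reads in replicate 1 and 1 in replicate 2.

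Snhg20 was the other host with reads enough to compare isoforms once at least 10 reads in each library were asked for. Its spliced transcript Snhg20-202 had 35 of 44 reads (79.5%) in replicate 1 and 3 of 11 (27.3%) in replicate 2 (exact test, adjusted p = 0.0286, beside 8.07% of 3617 genes called). All its other reads were in the single-exon transcript Snhg20-203, which covers the scaRNA Gm26083 whole, 9 of 44 (20.5%, 9.80 to 35.3) and 8 of 11 (72.7%, 39.0 to 94.0). Snhg20-202 stood at 41.2 and 5.50 CPM and Snhg20-203 at 10.6 and 14.7 CPM, so the spliced form was the scarce one in replicate 2.

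Snhg5 kept Snord50a in 4 of 10 reads of replicate 1 and 4 of 4 of replicate 2, and its near-copy Snord50b in 1 of 10 and 2 of 4. With so few reads the intervals overlap (40.0%, 12.2 to 73.8, and 10%, 0.253 to 44.5, in replicate 1). In Snhg1, 4 of 16 and 1 of 2 reads retained an intron of its usual transcript Snhg1-211. One read in each library ran through nearly the whole gene unspliced, with 7 and 8 of the 8 snoRNAs kept.

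Snhg8, Snhg3, Snhg12 and Snhg11 were read almost only with their snoRNAs spliced out. Snhg8 kept Snora24 in 1 of 48 reads (2.08%, 0.0527 to 11.1) and 0 of 2, and 46 of its 48 reads in replicate 1 were the 3-exon transcript Snhg8-201. Snhg3 kept Snora73b in 0 of 33 reads (an upper limit of 10.6%), and Snhg12 kept Snora61 in 2 of 13 reads of replicate 1 and none of its other snoRNAs. Snhg11 kept neither of its snoRNAs in 18 and 9 spanning reads, and its usual transcript Snhg11-201 held 13 of 20 and 5 of 11 reads.

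Unannotated structures were a larger share of host reads in replicate 2. Known models held 82.4% and 47.8% of host reads, incomplete splice matches (ISM) 7.41% and 25.4%, new combinations of known splice sites (NIC) 8.02% and 17.9%, new splice sites (NNC) 1.80% and 2.99%, and genomic models 0.401% and 5.97%. Over all annotated genes known models held 76.7% and 75.3%. Of 43 and 27 unannotated spliced host models, 5 had the same intron chain in both libraries, 2 of them in Gas5, 2 in Snhg5 and 1 in Snhg11.

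The starts of several hosts are shown where unannotated models, whose ends come from reads, begin and where a run of C and T was found. Each window holds the 20 bases before the RefSeq start and the 20 from it on (GRCm38.p6 promoter table; 9 of the 10 hosts had an entry), and capitals mark a run of C and T with at least 6 of its letters in the stretch from 5 bases before to 10 bases after the start. Runs of this kind at a start are known from genes of the translation machinery.
Gas5 start (chr1:161035146-161035185, plus strand): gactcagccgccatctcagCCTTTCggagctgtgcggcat
Snhg8 start (chr3:123508317-123508356, minus strand): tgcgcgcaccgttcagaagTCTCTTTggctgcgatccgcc
Snhg1 start (chr19:8723467-8723506, plus strand): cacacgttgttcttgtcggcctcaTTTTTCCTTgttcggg
Such a run was found in 5 of the 9 hosts with an entry and in 13.7% of all 32851 promoters. Unannotated Gas5 models started within 10 bases of this start for 46 of 74 reads in replicate 1 and 18 of 22 in replicate 2, and those of Snhg1 for 4 of 6 reads and 1 of 1. All reads of a model were counted at the start of that model, and the start of each single read was not used. Starts without such a run, not shown, were also used. Unannotated models began there for 3 of 3 and 4 of 6 reads of Snhg5, and for 0 of 2 and 2 of 5 reads of Snhg11.

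Several hosts lie close to other genes. Snhg1 starts 106 bases from Slc3a2 on the other strand, a gene for an amino acid transporter subunit, which had 446 and 370 reads (525 and 679 CPM). Gas5 starts 427 bases from Zbtb37 (0 and 2 reads), with which it overlaps, and Snhg18 starts 148 bases from Sema5a (2 and 3 reads). Snhg3 overlaps Rcc1 on the same strand (6 and 19 reads), so reads within the shared stretch could be given to either. Slc3a2 had the higher CPM in replicate 2, where the median log2 ratio over all genes tested was also above 0, at 0.38. Snhg1 was lower there on 16 and 2 reads, and its log2 ratio turned to 1.52 with the length trend removed. A link between Slc3a2 and Snhg1 was not tested.

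The other genes of the pathway were taken from lists. Of 11 further noncoding snoRNA hosts, 3 were not annotated under their symbol, 4 were tested, 2 were lower in replicate 2, 1 was higher and 1 did not pass, with a median log2 ratio of -1.42 (0.38 over all genes, of which 27.9% were lower and 36.6% higher). With the length trend removed, 0 were lower and 2, Snhg15 and Snhg17, were higher, beside 21.3% lower and 20% higher over all genes. Snhg17 had 9 and 17 reads (log2 ratio 1.47; exact test, adjusted p = 0.0144), Snhg15 16 and 10 (-0.04; adjusted p = 1) and Dancr 18 and 0 (adjusted p = 0.000358). Intron-retaining reads made up 25% and 67.9% of the reads of this list, beside 21.2% and 62.7% in the 10 hosts.

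Among 16 protein-coding snoRNA hosts, 9 were lower and 6 higher in replicate 2 (median log2 ratio -0.85), beside 27.9% lower and 36.6% higher over all genes. With the length trend removed, 5 were lower and 8 higher, beside 21.3% lower and 20% higher over all genes. Their retaining share was 1.81% and 4.03%. The most abundant were Hspa8, a chaperone (12116 and 9387 CPM), Eef2, the elongation factor of translation (431 and 7346 CPM), and Rpl3, a ribosomal protein (1409 and 392 CPM). No test of the difference between noncoding and protein-coding hosts was run.

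Of 17 genes for the proteins that bind or assemble snoRNAs, 15 were tested, 8 were lower and 2 higher (median log2 ratio -0.77), beside 27.9% lower and 36.6% higher over all genes. With the length trend removed, 6 were lower and 2 higher, beside 21.3% lower and 20% higher over all genes. The H/ACA protein gene Nop10 had 442 and 11 reads (log2 ratio -4.62), the C/D protein gene Snu13 had 174 and 9 (-3.56) and Nop56 had 79 and 119 (1.22). Nop56 is itself a snoRNA host, and 29.1% and 77.3% of its reads retained an intron. Of 14 genes of nonsense-mediated decay, 13 were tested, 5 were lower and 3 higher (median -0.48), with Eif4a3 at 302 and 56 reads, Smg5 at 12 and 39 and Rbm8a at 47 and 15. With the length trend removed, 3 of the 8 with a known length were lower and 0 higher, beside the same 21.3% and 20% over all genes. Eif4a3 and Smg5 then lost their call (exact binomial test, adjusted p = 0.791 and 0.0513).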

How the data were processed

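Long-read RNA sequencing of whole adrenal tissue was analysed in 1 group of 2 libraries. The authors deposited whole read counts per transcript model, not normalized, with models made on mm10 and GENCODE M21, per the file headers; the source column credits new models to TALON. The sources used here do not give the platform or aligner. Depth was 848782 and 545229 reads. Host reads were summed per gene and scaled to CPM of all reads; log2 ratios add 1 CPM. Genes with at least 10 reads summed were compared by a two-sided Fisher's exact test, introns and genes with at least 20 reads in each library likewise, with Benjamini-Hochberg adjustment over all features and a threshold of 0.05 (scipy 1.17.1). Each test takes reads as independent and compares libraries. Alternatives used edgeR 4.0.16 (TMM) and DESeq2 1.42.0 (size factors), a length trend, other filters and other definitions of retention. The tests were checked on simulated data. Named genes were the 10 hosts, the 3 most abundant of each list and neighbours starting within 1000 bases on the other strand; Rcc1 was named after its values were seen. The hosts and lists were chosen with earlier results of these data known.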

Additional observations from a re-analysis of the deposited data

Results flagged for a closer look

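Reads that the host levels do not include were found in the same regions. Single-exon antisense models over Snhg11 had 37 reads in replicate 1 and 9 in replicate 2, more than the 20 reads of the host itself in replicate 1, and antisense models over Snhg6 had 6 reads in replicate 2, where Snhg6 had 0. A single-exon model holds no splice junction that would show its strand. Reads assigned to a snoRNA gene inside a host stood above 3 counts for Mir5117 in Gas5 (12 in replicate 2, beside 1 in replicate 1) and Snord22 in Snhg1 (9 in replicate 2, beside 3). Over all hosts such reads came to 14 and 29. The deposited tables list them with the annotated snoRNA length, so the length of these molecules is not known, and their source was not tested.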

How the results depend on the processing

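No paired analysis was possible because there is 1 group. Each host library difference kept its direction and its side of the threshold under TMM and DESeq2 scaling, which lower every log2 ratio by 0.43 and 0.45 and move the share of higher calls from 56.8% of 6363 genes called to 45.0% of 6069 and 44.8% of 6059. Removing the length trend left 3789 genes called and 3 hosts in place of 7, and turned Gas5 to 0.76, Snhg1 to 1.52, Snhg5 to 3.03, Snhg12 to 1.08 and Snhg20 to 2.29; Snhg1, Snhg3, Snhg8, Snhg12 and Snhg18 lost their call. A minimum of 20 reads left 5 hosts tested and 4 called, since fewer were tested. With known models only Snhg1 lost its call (adjusted p = 0.0767, exact test). Adding reads of the intronic snoRNA genes, chosen after seeing the data, left 4 hosts called, with Snhg1 at -0.14, Snhg12 at -1.81 and Snhg18 at -1.33 no longer called and Snhg5 at 0.17. Single libraries gave a summed level of 123 to 588 CPM and a retaining share of 21.2% to 62.7%. By annotated retained-intron type among known models, the mean share was 12.4% (2.92% and 21.9%) in place of 42.0%. Of the 4 alternatives tried for Gas5 retention, only 1 gave another value. Where an exon had to cover a whole snoRNA, the difference was 65.5 percentage points and stayed called. The others left it at 63.5 percentage points, so they are not separate checks of it. Counts of 1 to 3 reads limit Snhg1, Snhg8, Snhg12 and Snhg18 in replicate 2.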
